A study of Homo sapiens with 12 samples.

Results

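MCF10A is an immortalised human mammary epithelial cell line that does not form tumours. Here MCF10A cells expressing the CYT1 form of the intracellular domain (ICD) of the receptor ERBB4 were compared with MCF10A cells carrying a control vector (VEC). Both were kept in regular medium with 10% serum, and the labels name no drug, time point, clone or expression level. The comparison rests on 8 of the 12 Illumina bead arrays of the study, 4 from CYT1 cells and 4 from VEC cells. The other 4 arrays are from cells expressing the CYT2 form. They share in the normalisation, the detection filter and the estimate of the spread behind every SE and p-value. Their values are given where a CYT1 value is set against its CYT2 value. In each group the 4 arrays are 2 biological replicates of 2 technical arrays, and the labels do not say whether the biological replicates were separate cultures. Nor do the labels say whether each line is 1 clone or a pool, so an effect of the ICD and a difference between the lines cannot be told apart.

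ERBB4 belongs to the EGFR family of receptor tyrosine kinases. Some of its splice forms are cut within the membrane by gamma-secretase, and the freed ICD keeps the kinase and can enter the nucleus, where it acts with transcription factors. The CYT1 form carries a stretch of the tail that CYT2 lacks. This stretch holds a binding site for phosphoinositide 3-kinase and some, not all, of the sites for WW-domain proteins. In the mammary gland ERBB4 is best known for its part in differentiation and lactation.

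On a CYT1 or VEC array 37% to 39.6% of the 47323 probes were above background, and 17356 probes were tested. The tested probes with a gene name stood for 10371 genes. The 2 technical arrays of a replicate differed by a median of 0.165 to 0.193 on the log2 scale, and the averaged replicates of a group by 0.113 to 0.121. The biological replicates therefore differed no more than the technical arrays, and p-values measure only this spread, which may be technical. The CYT1 and VEC means differed by a median of 0.265. ERBB4 has 1 probe, which stayed at background on all 8 of these arrays. Its place in the transcript is unknown, and it therefore gives no check of ICD expression or of the labels. The 11 mammary epithelial markers measured were above background on all CYT1 and VEC arrays. Their summed signal was 26727 to 28529 on CYT1 arrays and 42442 to 44915 on VEC arrays, with 2 members called higher in CYT1 (the basal keratins KRT14 at 1.60 ± 0.09 and KRT5 at 1.08 ± 0.08) and 7 lower.

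A gene was called when its Benjamini-Hochberg adjusted p over all probes was under 0.05 in limma, and values are normalised log2 signals or log2 fold changes, CYT1 minus VEC, with the model's standard error (SE, n = 2 replicates per group). Of the 10371 genes 1924 were called higher in CYT1 cells (18.6%) and 2151 lower (20.7%). Rises were larger than falls. All 4 CYT1 arrays lay above all 4 VEC arrays for 2017 genes (19.4%) and below them for 2360 (22.8%). At least 2-fold changes were seen for 532 genes called higher (5.13%) and 192 called lower (1.85%), and at least 4-fold changes for 92 higher and 14 lower. The median over all genes was -0.05 and the median absolute change was 0.27. Of the probes called, 46.5% were higher in CYT1, and this share was 31.3% with the deposited log2 values, which are not normalised between arrays. Of the 4075 called genes 3321 belonged to none of 60 lists of pathways and families used below. The plot of fold change against signal shows the spread.

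**Figure D1:**
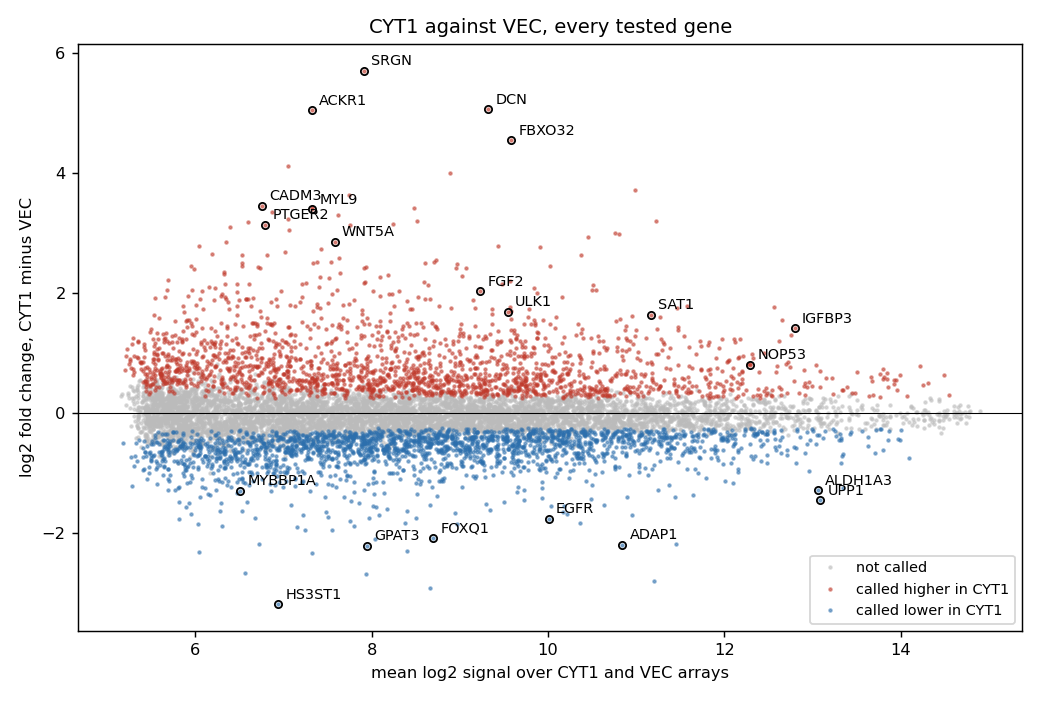
Log2 fold change, CYT1 minus VEC, against the mean log2 signal of CYT1 and VEC arrays for each of the 10371 tested genes. Red points were called higher in CYT1 (1924), blue points lower (2151) and grey points were not called. Named genes are ringed. Rises reach further from 0 than falls.

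Genes of ribosome assembly fell together in CYT1 cells. Ribosomes are built in the nucleolus, where ribosomal RNA is transcribed, cut and modified and joined to ribosomal proteins by a large set of assembly factors. Of 59 tested genes of this list (62 on the array) 43 were called lower and 1 higher, with a median of -0.59, against 20.7% called lower and a median of -0.05 over all genes. All 59 were above background on at least 2 arrays in each group. The steepest fall was that of MYBBP1A, a nucleolar protein that binds MYB. Its log2 signals were 5.84, 5.72, 6.11 and 5.80 on the CYT1 arrays, against 7.05, 7.19, 7.19 and 7.18 on the VEC arrays. The groups did not overlap, and the change was -1.29 ± 0.12, or 2.44-fold lower (adjusted p = 8.4e-04). RRP12, which acts in the export of both ribosomal subunits, had 8.43, 8.26, 8.32 and 8.65 on the CYT1 arrays, against 9.68, 9.63, 9.60 and 9.67 on the VEC arrays. It was lower by a log2 change of -1.23 ± 0.13 (adjusted p = 0.00119). RRP9, a protein of the U3 particle that guides cutting of ribosomal RNA, changed by -1.05 ± 0.18, and MRTO4, an assembly factor of the large subunit, by -1.04 ± 0.08. LYAR, a nucleolar zinc finger protein, changed by -0.93 ± 0.11. The helicase DDX56 changed by -0.92 ± 0.08 and lies on the short arm of chromosome 7, described below. The one member called higher was NOP53, which also acts in assembly of the large subunit. NOP53 had 12.76, 12.82, 12.66 and 12.57 on the CYT1 arrays, against 11.91, 11.88, 11.89 and 11.88 on the VEC arrays, all CYT1 arrays above all VEC arrays (0.81 ± 0.09). The counts depend on the members of the list. DDX51, a helicase of ribosome assembly outside the list, had probes called in opposite directions (1.26 on the brighter and -0.71 on the other).

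The promoters of 3 genes that fell are printed because they share a CACGTG, the core E-box to which MYC, MAX and other basic helix-loop-helix factors bind. The motif was chosen after the values were seen. Each runs from 250 bases before to 50 bases after the gene's start, 5′ to 3′ on the gene's strand, from RefSeq on GRCh38.p14, with the match in capitals. MYBBP1A lies at chr17:4555335-4555634 on the minus strand, MRTO4 at chr1:19251555-19251854 on the plus strand and RRP9 at chr3:51941855-51942154 on the minus strand.
MYBBP1A: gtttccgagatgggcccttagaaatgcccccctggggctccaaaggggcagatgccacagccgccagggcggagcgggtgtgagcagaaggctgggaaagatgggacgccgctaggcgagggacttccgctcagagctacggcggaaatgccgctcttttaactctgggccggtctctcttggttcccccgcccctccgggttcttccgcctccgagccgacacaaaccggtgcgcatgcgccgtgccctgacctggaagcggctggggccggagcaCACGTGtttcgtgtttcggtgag
MRTO4: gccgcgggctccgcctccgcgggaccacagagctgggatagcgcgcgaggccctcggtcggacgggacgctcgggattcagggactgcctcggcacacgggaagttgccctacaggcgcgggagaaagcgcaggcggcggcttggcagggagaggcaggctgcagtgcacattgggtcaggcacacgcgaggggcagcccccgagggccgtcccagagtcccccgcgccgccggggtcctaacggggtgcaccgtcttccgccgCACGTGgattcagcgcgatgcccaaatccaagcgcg
RRP9: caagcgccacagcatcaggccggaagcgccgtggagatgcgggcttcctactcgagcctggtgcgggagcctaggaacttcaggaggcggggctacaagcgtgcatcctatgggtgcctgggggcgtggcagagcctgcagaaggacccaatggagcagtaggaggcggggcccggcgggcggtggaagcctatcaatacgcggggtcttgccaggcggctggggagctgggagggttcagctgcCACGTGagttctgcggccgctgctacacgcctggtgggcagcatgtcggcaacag
CACGTG reads the same on both strands. In each of these 3 promoters it occurs 1 time, close to the gene's start. Of the 43 ribosome assembly genes called lower 37 had a promoter in the table, and 12 of these (32.4%) held the letters. They were in 871 of the 8420 promoters of tested genes (10.3%) and in 2030 of all 27305 promoters (7.43%). A match is a description of the letters and shows no binding. The share was not counted for members of the list that were not called lower, and whether it goes with the fall was not tested.

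Among factors known to bind such sites MYC itself was lower in CYT1 cells, with 11.18, 11.06, 11.03 and 11.17 on the CYT1 arrays, against 11.61, 11.80, 11.57 and 11.74 on the VEC arrays. The groups did not overlap (-0.57 ± 0.08, adjusted p = 0.00297, and -0.85 on its other probe). MXD4, a repressor that competes for the partner MAX, had 10.86, 11.26, 11.02 and 11.20 on the CYT1 arrays, against 9.56, 9.53, 9.65 and 9.65 on the VEC arrays and was 2.80-fold higher (1.48 ± 0.08). Another member, MXD1, went the other way (-0.39 ± 0.11), and MLX, a partner in a related network, was lower (-0.61 ± 0.16). MXD3, of the same family, was above background on 0 of 4 VEC arrays and at least 1.29-fold higher, with means of 5.87 on CYT1 arrays and 4.70 on VEC arrays (adjusted p = 5.7e-04). Of 37 tested bHLH and basic leucine zipper factors 9 were higher (24.3%) and 8 lower (21.6%), against 18.6% higher and 20.7% lower over all genes. The factors given here are a part of those called in either direction. A link between any of them and the ribosome assembly genes was not tested.

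The lower side held other large assemblies, found by the shared root of their symbols among 176 roots with at least 8 tested genes, and is read against 20.7% of all genes called lower. Of 49 MRPL genes, which encode the large subunit of the mitochondrial ribosome, 25 were called lower (51.0%) and 0 higher by limma. Among them were MRPL32 (-0.85 ± 0.08), on the short arm of chromosome 7 described below, and MRPL58 (-0.73 ± 0.09). Of 29 MRPS genes of its small subunit 10 were lower (34.5%) and 0 higher, the smallest share of the roots described here. Of 10 UTP genes, which process ribosomal RNA, 6 were lower and 0 higher, with UTP15 at -0.71 ± 0.18. Of 9 CCT genes, most of them subunits of the chaperonin that folds actin and tubulin, 6 were lower and 0 higher, with CCT4 at -0.72 ± 0.09. Of 12 ALG genes, most of which build the sugar chain for N-glycosylation, 6 were lower and 0 higher, with ALG6 and ALG12 both at -0.71. For a gene among these 6 a dimmer probe was called higher (0.79, against -0.70 on its brighter probe), so its direction is not settled. The root PRPF, of splicing factors, had 5 of 9 lower and 0 higher, led by PRPF19 (-0.83 ± 0.08). In these families the changes were moderate, with medians of -0.23 (MRPS) to -0.44 (CCT). POLR genes, subunits of the RNA polymerases, had 13 of 30 lower (43.3%) and 2 higher, and NUP genes of the nuclear pore 8 of 20 lower and 0 higher. Some of the genes counted as lower in the MRPS, CCT, POLR and NUP families also lie on the short arm of chromosome 7. In each of these families with 0 genes called higher, 0 were also higher at an unadjusted p under 0.05, by the brightest tested probe of each gene.

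Proteins that bring others into mitochondria were often lower, where 20.7% of all genes were called lower and 18.6% higher. Of 51 tested genes of mitochondrial import and dynamics 19 were called lower (37.3%) and 0 higher by limma (1 higher at an unadjusted p under 0.05), with a median of -0.27. Without VEC replicate 1, or without VEC replicate 2, 11 were called lower. TIMM8A, a chaperone of the space between the membranes, had 7.24, 7.18, 7.28 and 7.19 on the CYT1 arrays, against 8.31, 8.05, 8.25 and 8.11 on the VEC arrays, with no overlap (-0.96 ± 0.08). GRPEL1, the exchange factor of the mitochondrial Hsp70, changed by -0.76 ± 0.14. Of 48 translation factors 15 were lower (31.2%) and 4 higher. Their median was -0.17, and the largest fall was that of EEF1A2, a form of the elongation factor that is abundant in muscle and nerve. EEF1A2 had 7.90, 7.78, 8.04 and 7.65 on the CYT1 arrays, against 9.16, 9.29, 9.08 and 9.24 on the VEC arrays, a change of -1.35 ± 0.08. Of 36 genes of purine synthesis and one-carbon metabolism 12 were lower (33.3%), led by MTHFD1 (-0.78 ± 0.13), a folate enzyme, and 4 were higher. The largest rise was that of ADSS1, the muscle form of adenylosuccinate synthase (1.91 ± 0.13), but its other probe stood at -0.29.

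In polyamine metabolism 3 of 14 genes were higher (21.4%), 5 lower (35.7%) and 6 not called, against 18.6% higher and 20.7% lower over all genes. SAT1, which acetylates spermidine and spermine for breakdown or export, had 12.05, 11.95, 12.05 and 11.88 on the CYT1 arrays, against 10.49, 10.23, 10.27 and 10.40 on the VEC arrays. All CYT1 arrays lay well above all VEC arrays, and the change was 1.64 ± 0.08 (3.11-fold, adjusted p = 1.2e-04). SMOX, which oxidises spermine, rose by 0.66 ± 0.08 and SAT2 by 0.60 ± 0.08. ODC1, the first enzyme of synthesis, had 10.58, 10.80, 10.48 and 10.72 on the CYT1 arrays, against 11.27, 11.22, 11.10 and 11.25 on the VEC arrays, a change of -0.56 ± 0.08. SRM, AMD1 and SMS, which make spermidine and spermine, changed by -0.54, -0.38 and -0.31, each called lower. The largest fall in the list was DOHH, which completes the hypusine residue of a translation factor (-0.78 ± 0.09).

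**Figure D2:**
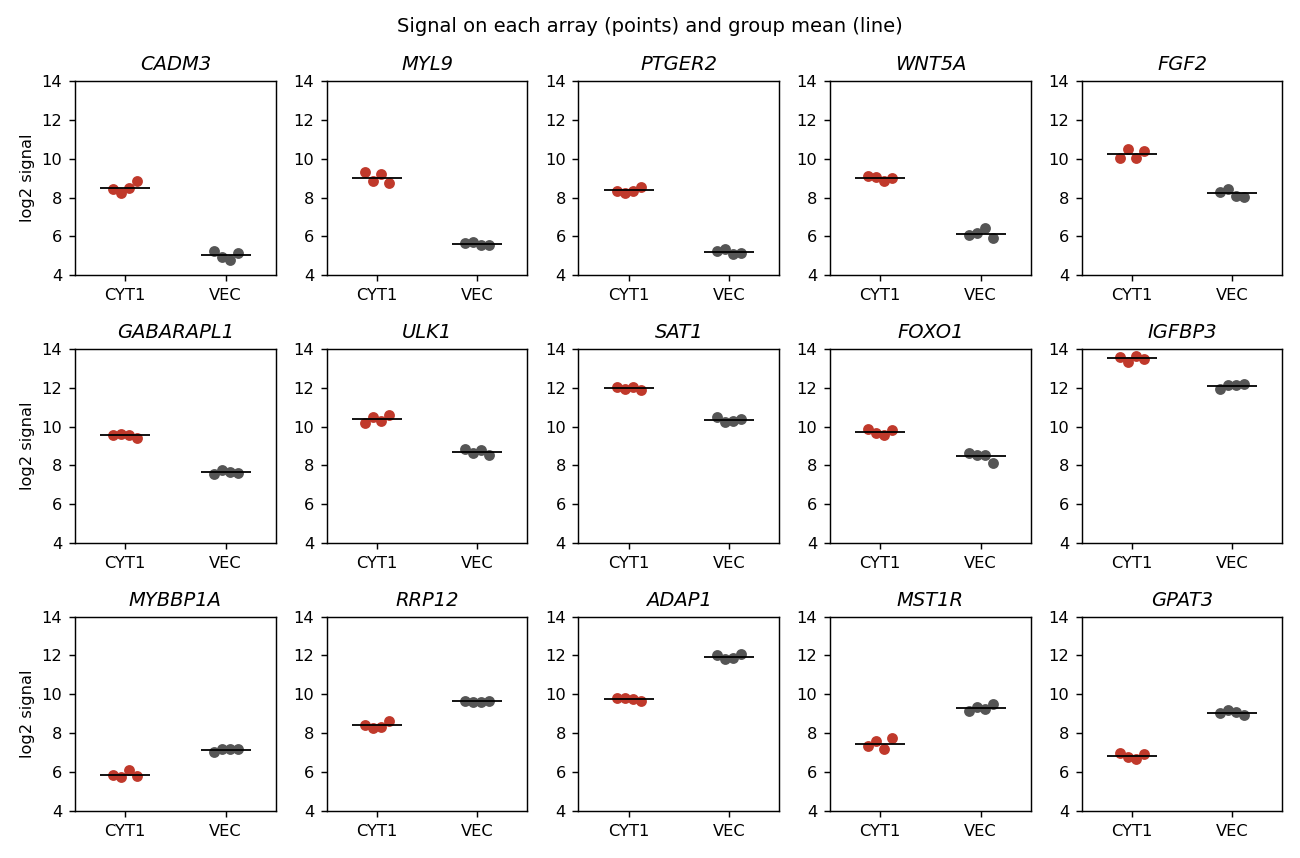
Normalised log2 signal of 15 genes on each of the 4 CYT1 arrays (red, left) and 4 VEC arrays (grey, right), with the group mean as a line. In every panel the CYT1 and VEC points do not overlap: 10 genes are higher in CYT1 and 5 (MYBBP1A, RRP12, ADAP1, MST1R and GPAT3) lower.

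Position in the genome set apart the short arm of chromosome 7, as the plot of chromosome 7 in gene order shows. This was looked for by chromosome and then by arm, after the values were seen, and is a description with no test. Of 182 tested genes of 7p 111 were called lower in CYT1 (61.0%) and 16 higher (8.79%). The median was -0.44. Of 317 tested genes of the long arm, 7q, 57 were lower (18%) and 62 higher (19.6%), with a median of 0.02. Medians of the 39 other arms with at least 20 tested genes lay between -0.18 (18q) and 0.09 (12p). Next to 7p the largest share called lower was 33.7%, on 20p.

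The lower signals on 7p were present on each CYT1 array and along the whole arm. Set against the VEC mean, the median over 7p genes was -0.42, -0.43, -0.45 and -0.52 on the 4 CYT1 arrays, where the median over all genes was -0.04 on each. On the 4 CYT2 arrays, set against the same VEC mean, it was -0.18, -0.29, -0.20 and -0.24. Each VEC array, set against the other VEC replicate, lay between -0.01 and 0.02. Split by gene order into 4 stretches of 45 or 46 genes, 7p had medians of -0.39, -0.54, -0.47 and -0.46, with 24, 27, 29 and 31 genes called lower. The CYT1 minus CYT2 median over 7p was -0.21, and 3 of its genes were called lower in CYT1 than in CYT2.

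**Figure D3:**
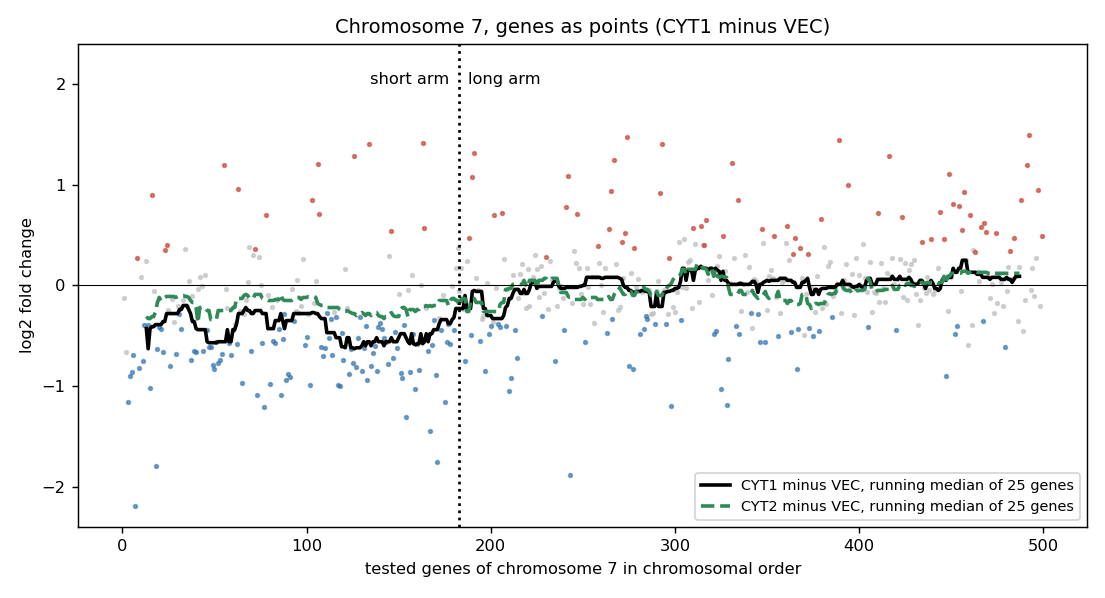
Log2 fold change, CYT1 minus VEC, of each tested gene of chromosome 7 in chromosomal order (points, red called higher, blue called lower, grey not called). Lines are running medians of 25 genes for CYT1 minus VEC (black) and CYT2 minus VEC (green, dashed). Left of the dotted line, on the short arm, the black line runs below 0 and the green line between it and 0. Right of it both lie near 0.

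Of the 25 largest called falls 2, ADAP1 and MAD1L1, lay on 7p. ADAP1, an Arf GTPase-activating protein that binds phosphoinositides, had log2 signals of 9.65 to 9.82 on the 4 CYT1 arrays and 11.82 to 12.06 on the 4 VEC arrays, without overlap, a change of -2.19 ± 0.09 (4.57-fold lower). MAD1L1, of the spindle checkpoint, had 6.88, 6.87, 6.78 and 6.85 on the CYT1 arrays, against 8.54, 8.71, 8.47 and 8.86 on the VEC arrays (-1.80 ± 0.08), with -0.75 on its other probe. The receptor EGFR, in the same family as ERBB4, had 9.11, 9.27, 9.06 and 9.08 on the CYT1 arrays, against 10.89, 10.93, 10.90 and 10.84 on the VEC arrays (-1.76 ± 0.08), with -0.71 on its other probe. Of these 3 genes the CYT1 and VEC arrays were far apart. UPP1, a uridine phosphorylase among the 300 brightest genes, changed by -1.45 ± 0.09, and OGDH, a subunit of the 2-oxoglutarate dehydrogenase of the tricarboxylic acid cycle, by -1.31 ± 0.10. A few 7p genes were higher. IGFBP3, which binds insulin-like growth factors, had 13.57, 13.34, 13.65 and 13.49 on the CYT1 arrays, against 11.91, 12.12, 12.13 and 12.21 on the VEC arrays, a rise of 1.42 ± 0.10 (2.68-fold). ANLN, an actin-binding protein of dividing cells, rose by 1.29 ± 0.08. Outside 7p, 2040 of 10189 genes were called lower (20%) and the median was -0.04. Without its 7p genes the ribosome assembly list had 42 of 58 members lower, with a median of -0.59.

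Autophagy genes were more often higher than lower in CYT1 cells. Autophagy delivers parts of the cytoplasm to lysosomes in vesicles that form around them and carry lipid-linked proteins of the ATG8 family. Of 34 tested genes 13 were called higher and 5 lower (38.2% higher, against 18.6% of all genes), with a median of 0.20. GABARAPL1, of the ATG8 family, had 9.58, 9.64, 9.59 and 9.42 on the CYT1 arrays, against 7.57, 7.78, 7.67 and 7.59 on the VEC arrays and was 3.73-fold higher (1.90 ± 0.10). ULK1, the kinase that starts the process, had 10.20, 10.48, 10.28 and 10.61 on the CYT1 arrays, against 8.84, 8.65, 8.77 and 8.53 on the VEC arrays (1.69 ± 0.09). For both genes every CYT1 array lay above every VEC array. WIPI1, which binds phosphatidylinositol 3-phosphate on the growing membrane, rose by 1.45 ± 0.14, and MAP1LC3A and MAP1LC3B, also of the ATG8 family, by 1.33 ± 0.08 and 0.76 ± 0.08. The members called lower act in the attachment of ATG8 proteins to lipid. They were ATG16L1 (-0.77 ± 0.08), ATG7 (-0.62 ± 0.12), ATG4C (-0.59), ATG3 (-0.48) and ATG5 (-0.38).

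Forkhead factors and members of the phosphoinositide 3-kinase (PI3K) pathway changed in both directions. Of 27 tested SOX, FOX, GATA and TBX factors 6 were higher (22.2%) and 7 lower (25.9%), against 18.6% higher and 20.7% lower over all genes. The FOXO branch holds transcription factors that AKT, downstream of PI3K, keeps out of the nucleus. FOXO1 had 9.89, 9.65, 9.59 and 9.83 on the CYT1 arrays, against 8.64, 8.51, 8.56 and 8.11 on the VEC arrays, without overlap (1.28 ± 0.13). FOXO4 rose by 0.91 ± 0.13 and FOXO3 by 0.44 ± 0.08, and FOXN3, a repressor of another branch of the family, by 1.46 ± 0.12. The largest forkhead rise was FOXM1, of dividing cells (1.73 ± 0.12). FOXQ1, an epithelial forkhead factor, had 7.74, 7.83, 7.48 and 7.58 on the CYT1 arrays, against 9.80, 9.65, 9.71 and 9.76 on the VEC arrays and was 4.21-fold lower (-2.08 ± 0.14). FOXN2 (-0.57 ± 0.08) was lower too, and FOXA2, above background on 0 of 4 CYT1 arrays, was at least 1.20-fold lower, with means of 5.11 on CYT1 arrays and 5.75 on VEC arrays (adjusted p = 0.0149). Of 31 genes of PI3K signalling 9 were higher and 1 lower (29.0% and 3.23%), with a median of -0.05. Among them were the kinases SGK1 (0.94 ± 0.08) and PIK3C2B (0.76 ± 0.17), the adaptor IRS2 (0.53 ± 0.09) and, as inhibitors of the pathway, the phosphatase INPPL1 (0.93 ± 0.08), SESN1 (0.78 ± 0.10) and PIK3IP1 (0.71 ± 0.11). PIK3R4, a subunit of the class III enzyme that serves autophagy, was lower (-0.47 ± 0.10). FBXO32, a ubiquitin ligase subunit known from muscle wasting, had 11.76, 11.93, 11.98 and 11.78 on the CYT1 arrays, against 7.38, 7.30, 7.41 and 7.14 on the VEC arrays and stood 23.5-fold higher. PDK4, which inhibits pyruvate dehydrogenase, had 8.69, 8.79, 8.50 and 8.88 on the CYT1 arrays, against 7.53, 6.91, 7.57 and 6.93 on the VEC arrays (1.48 ± 0.08).

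Ligands and receptors changed in both directions. Of 23 tested Wnt ligands, receptors and regulators 5 were higher (21.7%) and 7 lower (30.4%), against 18.6% higher and 20.7% lower over all genes, and 4 of the tested genes had fewer than 2 arrays above background in CYT1 or in VEC. WNT5A, the best known ligand that acts without beta-catenin, had 9.13, 9.04, 8.84 and 9.03 on the CYT1 arrays, against 6.10, 6.16, 6.42 and 5.94 on the VEC arrays, a 7.25-fold rise (2.86 ± 0.09). The receptor gene FZD2 rose by 1.93 ± 0.16 and the ligand WNT5B by 1.59 ± 0.13. WNT10B, a ligand of the beta-catenin branch, was above background on 0 of 4 CYT1 arrays and at least 2.31-fold lower, with means of 4.94 on CYT1 arrays and 6.70 on VEC arrays (adjusted p = 2.1e-04). WNT7A had 7.33, 6.81, 7.39 and 6.93 on the CYT1 arrays, against 8.54, 8.68, 8.57 and 8.61 on the VEC arrays (-1.49 ± 0.08), and the receptor gene FZD8 changed by -1.11 ± 0.25.

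Among growth factors FGF2, a fibroblast growth factor bound by heparan sulfate, had 10.06, 10.49, 10.05 and 10.38 on the CYT1 arrays, against 8.30, 8.45, 8.09 and 8.01 on the VEC arrays. Its CYT1 arrays lay above its VEC arrays by more than 1 log2 unit (2.03 ± 0.12, with 1.25 on its other probe). MDK, a heparin-binding factor, had 7.58, 7.16, 7.24 and 7.10 on the CYT1 arrays, against 8.69, 8.96, 8.69 and 8.98 on the VEC arrays, a change of -1.56 ± 0.11. FGFBP1, a carrier that releases FGFs from the matrix, changed by -1.40 ± 0.08 and ARTN, a ligand of the GDNF family, by -1.12 ± 0.11. Of 18 tested genes 7 were higher and 4 lower (38.9% and 22.2%), against 18.6% higher and 20.7% lower over all genes. In the BMP list FSTL1, a secreted glycoprotein, rose by 1.75 ± 0.09, while the ligand BMP2 (-1.53 ± 0.19) and FST, which binds activins (-1.54 ± 0.09), were lower (7 higher and 6 lower of 17).

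Of 9 tested receptor tyrosine kinases outside the ERBB and EPH families 4 were lower and 1 higher, where 20.7% and 18.6% of all genes were. MST1R, the receptor of macrophage-stimulating protein, had 7.33, 7.58, 7.18 and 7.76 on the CYT1 arrays, against 9.12, 9.36, 9.22 and 9.48 on the VEC arrays and was 3.56-fold lower (-1.83 ± 0.08). MET, the related receptor of hepatocyte growth factor, changed by -0.42 ± 0.10, DDR1, a collagen receptor, by -0.62 ± 0.09 and TYRO3 by -0.51 ± 0.11. AXL, of the same family as TYRO3, was higher (0.71 ± 0.12).

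Of 63 G protein-coupled receptors on the array 35 were tested, of which 10 had fewer than 2 arrays above background in CYT1 or in VEC. Of those tested 11 were higher (31.4%) and 12 lower (34.3%), against 18.6% higher and 20.7% lower over all genes. PTGER2, a prostaglandin E2 receptor that raises cAMP, was above background on 0 of 4 VEC arrays. It had 8.36, 8.25, 8.35 and 8.52 on the CYT1 arrays, against 5.27, 5.38, 5.09 and 5.16 on the VEC arrays, which places CYT1 at least 7.32-fold higher. F2RL2, a thrombin receptor, rose by 1.64 ± 0.13. ADGRF1, an adhesion-type receptor, had 7.18, 7.10, 6.72 and 6.94 on the CYT1 arrays, against 9.04, 9.27, 9.06 and 8.98 on the VEC arrays, a change of -2.10 ± 0.12, and its 3 probes ran from -2.25 to -2.01. P2RY2, a receptor for ATP and UTP, changed by -1.72 ± 0.11, with -1.01 on its other probe. Downstream, 7 of 19 genes of cAMP and cGMP turnover were lower (36.8%) and 2 higher. They included the protein kinase A subunit PRKAR1B (-1.16 ± 0.12, on 7p) and the cyclase ADCY7 (-0.91 ± 0.21), against the phosphodiesterase PDE4C, which rose by 1.14 ± 0.10.

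Genes of contraction and cell shape gave some of the largest rises, mostly from single members of their families. MYL9, the regulatory light chain of smooth muscle and non-muscle myosin, had 9.31, 8.86, 9.21 and 8.73 on the CYT1 arrays, against 5.67, 5.70, 5.56 and 5.56 on the VEC arrays, a 10.6-fold rise (3.40 ± 0.11), with 2.79 on its other probe. MYLK, the kinase that phosphorylates this chain, rose by 1.07 ± 0.12, while the vesicle motor MYO5B was lower (-1.10 ± 0.17). The list of myosins and septins as a whole had 7 higher and 5 lower of 29 (24.1% and 17.2%), with a median of 0.01. Over all genes 18.6% were higher and 20.7% lower. LMCD1, a LIM domain cofactor found in heart and muscle, was above background on 0 of 4 VEC arrays and at least 8.25-fold higher (means 8.54 on CYT1 arrays and 5.19 on VEC arrays, adjusted p = 3.7e-05). LIMCH1, which activates non-muscle myosin, was at least 5.09-fold higher (means 7.85 on CYT1 arrays and 5.22 on VEC arrays, adjusted p = 5.4e-05).

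CADM3, an immunoglobulin-like adhesion molecule of nerve cells, had 8.44, 8.22, 8.48 and 8.83 on the CYT1 arrays, against 5.26, 4.96, 4.77 and 5.15 on the VEC arrays. It was above background on all CYT1 arrays and none of the 4 VEC arrays, at least 7.96-fold higher (adjusted p = 5.7e-05). PCDH9, a protocadherin detected on 2 of 4 VEC arrays, had 7.70, 7.49, 7.78 and 7.77 on the CYT1 arrays, against 5.60, 6.39, 5.01 and 5.14 on the VEC arrays (2.15 ± 0.28). The VEC arrays of PCDH9 were far apart, and still below all CYT1 arrays. CEACAM1, an epithelial adhesion molecule, changed by -1.53 ± 0.09, the connexin GJB5 by -1.66 ± 0.10 and the guidance cue SEMA3A, whose receptors are neuropilins and plexins, by -1.89 ± 0.11. FLRT3, another guidance molecule, changed by -1.82 ± 0.09. Among keratins KRT34, known from hair, had 8.60, 8.61, 8.55 and 8.62 on the CYT1 arrays, against 5.56, 5.71, 5.45 and 5.39 on the VEC arrays (3.06 ± 0.10) and KRT18, of simple epithelia, changed by -0.61 ± 0.12. In all 8 of 16 genes with the root KRT were higher and 3 lower, against 18.6% higher and 20.7% lower over all genes. The 8 include an antisense transcript (0.36), which is not a keratin. This root was picked for its high share called higher.

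The promoters of ANKRD1, a muscle ankyrin-repeat protein and a known target of YAP with TEAD factors, and of CADM3 are printed because both hold GGAATG, a core to which TEAD factors bind. Searched on both strands (GGAATG or CATTCC), 4 of the 15 promoters found for the 25 largest rises held it (26.7%), against 902 of 8420 tested genes (10.7%) and 3836 of 27305 promoters (14%). The promoters are from RefSeq on GRCh38.p14, with ANKRD1 at chr10:90921038-90921337 on the minus strand and CADM3 at chr1:159171365-159171664 on the plus strand, and capitals mark the matches. This motif too was chosen after the values were seen, and the genes were picked for the size of their rise. A match shows no binding, and whether it goes with the rise was not tested.
ANKRD1: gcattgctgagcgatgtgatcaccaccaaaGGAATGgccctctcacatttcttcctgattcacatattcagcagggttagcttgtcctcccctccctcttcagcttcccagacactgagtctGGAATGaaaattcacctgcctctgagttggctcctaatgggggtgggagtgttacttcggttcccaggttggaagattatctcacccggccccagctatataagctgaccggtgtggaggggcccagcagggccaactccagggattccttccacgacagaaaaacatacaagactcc
CADM3: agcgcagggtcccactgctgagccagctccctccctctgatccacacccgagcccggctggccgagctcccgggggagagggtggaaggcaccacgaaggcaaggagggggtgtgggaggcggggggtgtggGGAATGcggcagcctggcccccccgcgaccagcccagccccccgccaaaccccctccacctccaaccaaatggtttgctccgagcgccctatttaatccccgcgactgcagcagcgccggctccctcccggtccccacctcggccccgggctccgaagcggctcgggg
ANKRD1 holds 2 matches and CADM3 holds 1. ANKRD1 was above background on 0 of 4 VEC arrays and at least 12.2-fold higher in CYT1, with 9.20, 8.87, 9.16 and 9.21 on the CYT1 arrays, against 4.93, 4.87, 5.42 and 4.74 on the VEC arrays. The letters were also in 7 of 37 promoters of ribosome assembly genes called lower (18.9%) and 2 of 11 of autophagy genes called higher (18.2%). CACGTG was in 1 of the 15 promoters of the largest rises and in 2 of the 11 autophagy promoters. Another motif searched, GTAAACA for forkhead factors, was in 0 of the 15, 0 of the 11 and 2 of the 37, against 191 of 8420 tested genes (2.27%). The other 2 promoters of large rises with GGAATG were those of SPARC and CCN2, which changed by 3.23 ± 0.09 and 3.21 ± 0.08.

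Some markers of other cell types were higher on the CYT1 arrays. Of 15 fibroblast markers on the array 9 were tested. Of these 3 had fewer than 2 arrays above background in CYT1 or in VEC, so the number called higher (8, led by DCN at 5.07 ± 0.08) is partly set by the detection filter. Their summed signal was 13441 to 14950 on CYT1 arrays and 3857 to 4575 on VEC arrays. Without DCN it was 9484 to 11230 on CYT1 arrays and 3754 to 4460 on VEC arrays. The other members called higher rose by 0.95 to 3.15. COL3A1, LUM, DPT, PDGFRB and THY1 were not above background on any CYT1 or VEC array. PDGFRA was not above background on any VEC array but was on at least 1 CYT1 array. For 18 leukocyte markers the sum was 4422 to 4999 on CYT1 arrays and 3540 to 3730 on VEC arrays, and PTPRC, CD3D, CD3E, LYZ and TYROBP were not above background on any of these arrays. Of 5 tested, SRGN (at least 38.6-fold) and CORO1A (0.68 ± 0.18) were higher and CD14 (-0.75 ± 0.08) and CD68 (-0.34 ± 0.08) lower. Without SRGN the sum was 2749 to 2876 on CYT1 arrays and 3507 to 3692 on VEC arrays, so the higher sum came from that gene. For 13 endothelial markers the sum was 1155 to 1426 on CYT1 arrays and 383 to 443 on VEC arrays. The difference was ACKR1 (at least 20.4-fold higher), 1 of 2 tested. Without it the sum was 360 to 452 on CYT1 arrays and 353 to 415 on VEC arrays, and CDH5, VWF, KDR, TIE1 and CLDN5 were not above background on any of these arrays. In bulk RNA more cells of a type and more RNA per cell cannot be told apart.

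Metabolic genes outside the biosynthetic lists moved as well. Of 55 tested genes of aldehyde, ketone and xenobiotic metabolism (78 on the array) 18 were higher (32.7%, against 18.6% of all genes) and 8 lower, with a median of 0.17. In 6 of them a group had fewer than 2 arrays above background, so those passed the detection filter through the other groups. HSD17B2, which oxidises estradiol to estrone, was above background on 0 of 4 VEC arrays. It had 7.27, 7.20, 7.24 and 7.04 on the CYT1 arrays, against 4.97, 4.86, 4.60 and 4.73 on the VEC arrays, at least 3.23-fold higher. GSTA4, which conjugates the lipid aldehyde 4-hydroxynonenal, had 7.45, 7.45, 7.11 and 7.91 on the CYT1 arrays, against 5.71, 5.55, 5.03 and 5.57 on the VEC arrays (2.02 ± 0.13). SULT1A1, a phenol sulfotransferase, rose by 1.21 ± 0.10, whereas SULT2B1, which sulfates cholesterol, was above background on 0 of 4 CYT1 arrays and at least 1.90-fold lower, with means of 5.18 on CYT1 arrays and 6.42 on VEC arrays.

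In glycerophospholipid metabolism 17 of 49 genes were higher (34.7%) and 15 lower (30.6%), against 18.6% higher and 20.7% lower over all genes. Of the tested genes 5 had fewer than 2 arrays above background in CYT1 or in VEC, and single enzymes changed by more than 2-fold. GPAT3, which adds the first acyl chain to glycerol 3-phosphate, had 6.96, 6.80, 6.67 and 6.94 on the CYT1 arrays, against 9.03, 9.17, 9.09 and 8.92 on the VEC arrays, 4.62-fold lower (-2.21 ± 0.10). GDPD1, which cleaves lysophospholipids, was above background on 0 of 4 VEC arrays and at least 2.66-fold higher, but its other probe stood at 0.02. PLD1, which makes phosphatidic acid, rose by 1.51 ± 0.11. Of 39 genes of O-glycan, sialic acid and fucose transfer 12 were lower (30.8%) and 6 higher, led by B3GNT5 (-0.89 ± 0.21), which starts lacto-series glycolipids, and FUT3 (-0.86 ± 0.11), which makes Lewis antigens, against GCNT1, which branches O-glycans and rose by 1.13 ± 0.11. The hyaluronan synthase HAS3 had 6.95, 7.10, 6.65 and 6.74 on the CYT1 arrays, against 8.99, 8.66, 8.51 and 8.79 on the VEC arrays (-1.88 ± 0.15). Carbonic anhydrases went opposite ways, with CA12, on the cell surface, at 1.73 ± 0.10 and CA2, in the cytoplasm, at -1.36 ± 0.08.

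**Figure D4:**
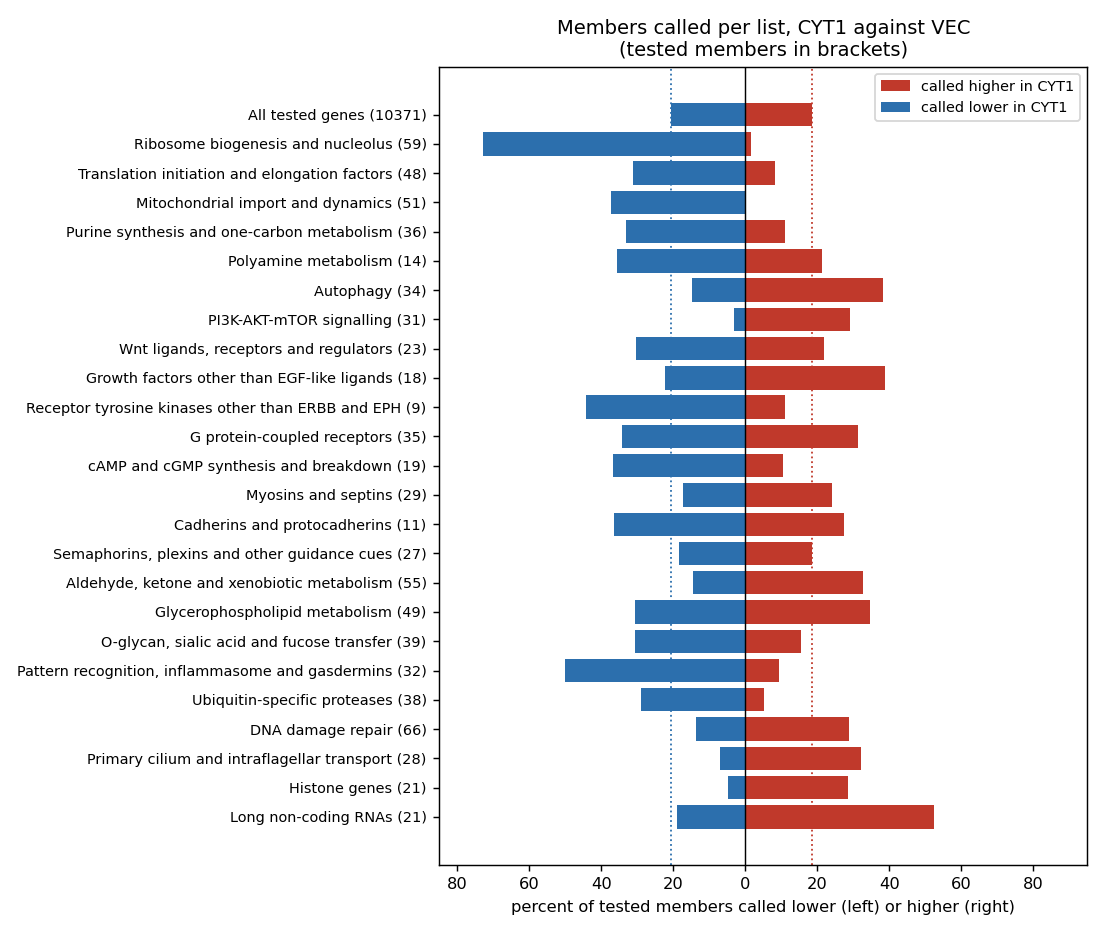
Percent of tested members called higher in CYT1 (red, right of 0) or lower (blue, left of 0) for 24 gene lists, with all tested genes as the top bar and as dotted lines (18.6% higher, 20.7% lower). Ribosome biogenesis reaches furthest to the left (72.9%), and autophagy (38.2%) and the xenobiotic list (32.7%) pass the dotted line to the right.

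Sensors of infection and damage were more often lower than higher. Of 32 tested genes of pattern recognition, inflammasomes and gasdermins 16 were called lower (against 20.7% of all genes) and 3 higher, with a median of -0.28. The number lower was 9 without CYT1 replicate 1, and 10 without VEC replicate 1 or without VEC replicate 2. IL1RN, the antagonist of the interleukin 1 receptor, had 7.39, 7.17, 7.25 and 7.21 on the CYT1 arrays, against 8.65, 8.68, 8.75 and 9.09 on the VEC arrays, a change of -1.54 ± 0.11 (2.90-fold lower). CGAS, which senses DNA in the cytoplasm, had 5.74, 5.53, 6.03 and 5.56 on the CYT1 arrays, against 6.77, 6.89, 6.81 and 6.73 on the VEC arrays (-1.09 ± 0.13). CASP1, the protease of inflammasomes, changed by -0.89 ± 0.08 and TLR5, the flagellin receptor, by -0.90 ± 0.10. The exceptions were NLRP3, the sensor of an inflammasome, GSDMD, the pore protein cut by CASP1, and the cytokine IL18, called higher at 1.16 ± 0.15, 0.75 ± 0.10 and 0.70 ± 0.08. NLRP3 had 6.88, 6.60, 6.88 and 6.79 on the CYT1 arrays, against 5.83, 5.84, 5.27 and 5.58 on the VEC arrays, with no overlap. THBD, the thrombin receptor of the protein C pathway, was above background on 0 of 4 CYT1 arrays and at least 2.45-fold lower, with means of 5.11 on CYT1 arrays and 6.79 on VEC arrays (adjusted p = 2.2e-04).

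The remaining lists, read against 18.6% higher and 20.7% lower over all genes, are given by their counts. Of 66 DNA repair genes 19 were higher and 9 lower (28.8% and 13.6%), with the DNA-bending protein HMGB2 (1.51 ± 0.13) and the glycosylase NEIL3 (0.87 ± 0.14) higher and the repair polymerase POLB lower (-0.82 ± 0.10). Of 28 genes of the primary cilium 9 were higher and 2 lower (32.1% and 7.14%). Among them IFT122, of the retrograde transport complex, was higher (1.09 ± 0.12) and IFT172, of the anterograde one, lower (-1.28 ± 0.13). Ubiquitin-specific proteases had 11 of 38 lower (28.9%) and 2 higher, of which USP49 rose most (1.31 ± 0.10). Of 21 histone genes 6 were higher and 1 lower (28.6% and 4.76%), with a median of 0.24, led by CENPA (2.04 ± 0.10), the histone of centromeres. Of 11 tested genes of the list of tumour-associated antigens and germline genes 6 were higher (54.5%, median 0.53) and 0 lower by limma (0 lower at an unadjusted p under 0.05 too), all of them from the MAGED, BEX and TCEAL families, with MAGED1 at 1.20 ± 0.08 and BEX3 at 1.15 ± 0.09.

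Groups of non-coding transcripts differed, read against 18.6% higher and 20.7% lower over all genes. Of 21 tested long non-coding RNAs and host genes 11 were higher (52.4%) and 4 lower, with a median of 0.31. H19, the imprinted transcript next to IGF2, was above background on 0 of 4 VEC arrays and at least 1.36-fold higher, with means of 5.94 on CYT1 arrays and 4.75 on VEC arrays, while SNHG15 (on 7p) was lower (-1.03 ± 0.08). Of 28 SNORA genes, guides of pseudouridylation, 12 were higher (42.9%) and 0 lower by limma (also 0 lower at an unadjusted p under 0.05), and of 40 SNORD genes, most of them guides of methylation, 12 were higher (30.0%) and 2 lower. Of 53 tested genes with the root LINC 5 were higher (9.43%) and 1 lower, with a median of -0.01. SNORD13 rose by 2.34 ± 0.09. Whether a SNORA or SNORD probe reads the guide RNA or a longer transcript is not given here. The values are therefore not taken as levels of guide RNA. MIR503HG, the host transcript of the miR-503 cluster on the X chromosome, had 9.11, 9.31, 9.18 and 9.47 on the CYT1 arrays, against 5.72, 6.14, 6.34 and 5.65 on the VEC arrays, a 9.88-fold rise (3.30 ± 0.11).

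Of 33 tested genes named for a miRNA or its host, 9 were called higher and 1 lower, against 18.6% and 20.7% of all genes. Such a probe on an array of labelled total RNA reads a longer transcript, and which one is not given here, so the values are not levels of mature miRNA. The mature sequences from RefSeq (GRCh38.p14) are shown for 4 of those called higher to tell which miRNAs these genes encode, with the seed, bases 2 to 8, in capitals. They lie at chr17:59841273-59841294 (plus strand), chr9:94178841-94178862 (plus strand), chrX:45746180-45746202 (minus strand) and chr4:38868092-38868113 (plus strand).
hsa-miR-21-5p: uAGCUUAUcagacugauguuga
hsa-let-7d-5p: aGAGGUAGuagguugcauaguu
hsa-miR-221-3p: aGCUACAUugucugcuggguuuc
hsa-miR-574-3p: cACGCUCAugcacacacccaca
The 4 seeds differ from each other. MIR21, whose miRNA is abundant in many tumours, had 7.14, 7.60, 7.14 and 7.26 on the CYT1 arrays, against 5.69, 5.54, 5.75 and 5.64 on the VEC arrays, with all CYT1 arrays higher (1.63 ± 0.12). MIRLET7D, of the let-7 family, rose by 0.93 ± 0.08, MIR221 by 0.58 ± 0.11 and MIR574 by 0.49 ± 0.09. MIR614 was the one called lower (-0.76 ± 0.18).

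Among the 300 brightest genes 50 were higher and 44 lower, where 18.6% of all genes were higher and 20.7% lower. RPL13A, a protein of the large ribosomal subunit with many near-identical pseudogenes that its probe may also read, had 13.44, 13.39, 13.41 and 13.39 on the CYT1 arrays, against 12.23, 12.13, 12.12 and 11.93 on the VEC arrays and rose by 1.30 ± 0.09. PLOD2, which hydroxylates collagen lysines, rose by 1.56 ± 0.08. ALDH1A3, which makes retinoic acid, had 12.50, 12.37, 12.38 and 12.44 on the CYT1 arrays, against 13.78, 13.66, 13.79 and 13.58 on the VEC arrays, and its CYT1 arrays all lay more than 1 log2 unit below its VEC arrays (-1.28 ± 0.08). S100A2, a calcium-binding protein of basal epithelium, changed by -1.24 ± 0.13 and FSCN1, an actin bundler on 7p, by -0.74 ± 0.09. Genes above background on all 4 arrays of one group and none of the other were 105 on the higher side (1.01% of genes) and 51 on the lower side (0.492%). On the lower side NPTX1, a neuronal pentraxin, was at least 2.74-fold lower, with means of 5.11 on CYT1 arrays and 6.95 on VEC arrays, and CEMIP, which acts in hyaluronan breakdown, at least 2.26-fold lower, with means of 5.18 on CYT1 arrays and 6.67 on VEC arrays.

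For 31 of 2528 genes with several tested probes, probes were called in opposite directions, so the direction of the gene is not settled. SPG7, a mitochondrial protease, had 1 probe at 0.50 and another at -1.54, the second above background on 0 of 4 CYT1 arrays. DDX51, a helicase of ribosome assembly, had 1.26 on its brighter probe and -0.71 on the other. FKBP14, a chaperone of collagen on 7p, had 1.21 and -0.69. CHRNA5 had 1.21 and -0.60, EXO5 had 1.32 and -0.43, and TMEM267 had 1.18 and -0.46.

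The CYT2 arrays show where the CYT1 values differ from those of the other form. Of 10371 genes 57 were called between CYT1 and CYT2 (0.550%), 32 higher in CYT1 (0.309%) and 25 lower (0.241%). The comparisons share the CYT1 arrays, so the values of all 3 groups are given side by side. KRT13, a keratin of non-cornified stratified epithelia, had 7.89, 7.69, 7.67 and 7.75 on the CYT1 arrays, 4.84, 5.46, 4.99 and 5.47 on the CYT2 arrays and 5.34, 5.03, 5.67 and 5.17 on the VEC arrays. CYT1 stood apart from both other groups, with a CYT1 minus CYT2 difference of 2.56 ± 0.11 (adjusted p = 0.00549). Its CYT2 signals all lay below the lowest signal above background on the same array (5.466 to 5.491). The size of this difference is therefore limited by the background. RARRES1, a retinoid-induced membrane protein, had 9.08, 8.55, 8.98 and 8.72 on the CYT1 arrays, 6.51, 6.51, 6.92 and 6.65 on the CYT2 arrays and 7.17, 7.34, 7.49 and 7.48 on the VEC arrays. It was called higher in CYT1 and lower in CYT2 than in VEC, and CYT1 minus CYT2 was 2.18 ± 0.13 (adjusted p = 0.0211). SERPINB13, a protease inhibitor of keratinocytes, differed by 1.70 ± 0.12 and LCP1, an actin bundler of blood cells, by 1.57 ± 0.17 (adjusted p = 0.0305 and 0.0387).

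On the other side SLCO2A1, a prostaglandin transporter, had 6.89, 6.74, 6.94 and 6.96 on the CYT1 arrays, 8.07, 7.79, 8.05 and 7.80 on the CYT2 arrays and 7.19, 7.10, 7.46 and 7.01 on the VEC arrays. It was called lower in CYT1 and higher in CYT2 than in VEC, with a CYT1 minus CYT2 difference of -1.04 ± 0.09 (adjusted p = 0.0305). AURKB, a mitotic kinase, was higher than VEC in both forms and lower in CYT1 than in CYT2, with a difference of -0.92 ± 0.10. MXD3 differed by -0.82 ± 0.10 in the same sense. Calls between CYT1 and CYT2 rested on every replicate. Over probes 82 were called, and 0 were called by limma without CYT1 replicate 1, CYT1 replicate 2, CYT2 replicate 1 or CYT2 replicate 2, where 2474, 2484, 2270 and 2292 probes had an unadjusted p under 0.05 (3029 with all replicates).

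**Figure D5:**
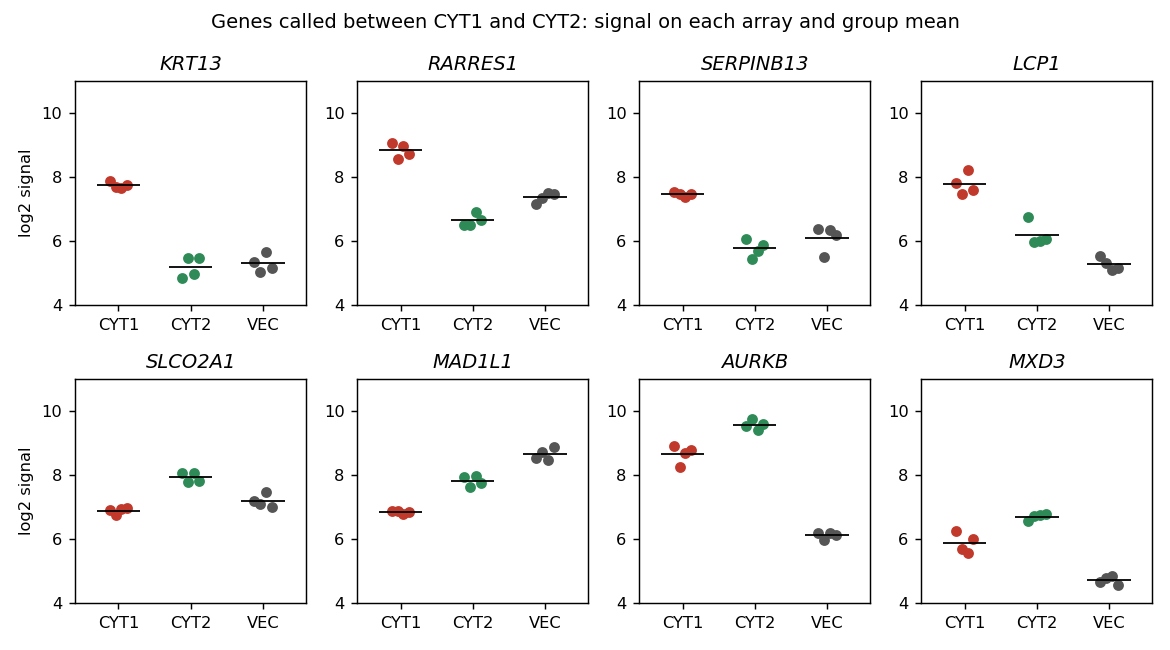
Normalised log2 signal of 8 genes called between CYT1 and CYT2 on each CYT1 (red), CYT2 (green) and VEC (grey) array, with group means as lines. KRT13, RARRES1, SERPINB13 and LCP1 are higher in CYT1 than in CYT2, and SLCO2A1, MAD1L1, AURKB and MXD3 lower.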

How the data were processed

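Total RNA of MCF10A cells was turned into biotinylated cRNA with Illumina's TotalPrep kit and read on 12 bead arrays, per the labels' protocols. The authors deposited the average bead intensity and a detection p-value of each probe, per the file headers. They also deposited a value table of log2 values, which equal the log2 of the same intensities with no normalisation between arrays. The sources used here name no slide, scan batch or scanner software. Columns of intensity name the group but not the replicate as the labels write it, so each array was joined to its sample through identical values in the log2 table.

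Intensities were background-corrected and quantile-normalised with neqc in limma 3.58.1 (R 4.3.3, offset 16), with negative-control levels inferred from the detection p-values. Testing was limited to probes that, in at least 2 of the 6 biological replicates, had a detection p under 0.05 on each technical array. Technical arrays were averaged, and CYT1, CYT2 and VEC were fitted together with lmFit and eBayes, two-sided, with Benjamini-Hochberg adjustment over all 17356 tested probes and calls at 0.05. The number of arrays limits the precision. Of the array's probes 30113 had 1 gene symbol in the platform annotation, 8 had several and 17202 were unnamed here, and 30074 of the single symbols matched the RefSeq gene table. A gene stands at its tested probe with the highest mean. Where no CYT1 array or no VEC array was above background, the fold between these groups is a bound. It is the mean of the bright group over, per array, the higher of the dim probe's own signal and the lowest signal above background.

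The members and the gene lists were chosen with earlier results of these data known, and the lists are described by counts, with no test of their own. Genes were named by a rule on size: the 25 largest called rises and falls without overlap between groups, leading members of each list and family, the largest bounds, the largest changes among the 300 brightest genes and among genes in no list, the 8 largest CYT1 minus CYT2 differences in each direction among genes called in both contrasts, and genes whose probes were called in opposite directions. Outside that rule 41 genes were named after their values were seen (AMD1, ANLN, ATG16L1, ATG3, ATG4C, ATG5, ATG7, CASP1, DDX56, F2RL2, FOXA2, FOXN2, FOXO3, FOXO4, FZD8, GSDMD, IL18, IRS2, KRT18, LYAR, MAP1LC3B, MET, MIR221, MIR574, MIR614, MIRLET7D, MLX, MTHFD1, MXD1, MYC, NOP53, ODC1, P2RY2, PIK3IP1, PIK3R4, POLB, SMS, SNORD13, SRM, SULT1A1 and WNT7A). COL3A1, LUM, DPT, PDGFRB, THY1 and the other markers at background come from the marker lists. The fit was tested on simulated data. Figures were drawn with matplotlib 3.10.9 and counts made with pandas 2.3.3 (Python 3.11.15). The alternatives were other background corrections, scalings, offsets and filters, single technical arrays, a random block, a replicate block and left-out replicates. A fit without the CYT2 arrays was another.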

Additional observations from a re-analysis of the deposited data

Results flagged for a closer look

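For 41 of the genes whose arrays are given one by one, 82 groups of 4 CYT1 or VEC arrays were looked at for an array far from the other 3. The CYT2 arrays were not looked at. Of the 82 groups 2 were found. Chance alone marks about 1 group in 20. They were an ANKRD1 signal of 8.87 on a CYT1 array and a MYBBP1A signal of 7.05 on a VEC array.

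The change against VEC differed between CYT1 and CYT2, by the CYT1 minus CYT2 contrast of the limma fit, for 26 named genes. They hold the 8 largest such differences in each direction among genes called in both contrasts, chosen by that size, and the other named genes that the CYT1 minus CYT2 contrast called. Those higher in CYT1 were KRT13 (2.56), RARRES1 (2.18), SERPINB13 (1.70), LCP1 (1.57), IGFBP4 (1.47), IGFBP7 and FBLN5 (both 1.18), RTN1 (1.17), HSD17B2 (1.14), KRT14 (1.09), DCN and SPARC (both 1.03), ACKR1 (0.73) and GDPD1 (0.72). Those lower in CYT1 were SLCO2A1 (-1.04), MAD1L1 (-0.96), AURKB (-0.92), FAM83D (-0.85), ADAM8 (-0.84), MXD3 (-0.82), STMN1 (-0.81), CDC25A (-0.79), ADAP1 (-0.75), ANLN and FGFBP1 (both -0.68) and CD14 (-0.64). All values are log2 differences of the averaged replicates, and none of the 26 stayed past the threshold when any of the 4 CYT1 and CYT2 replicates was left out.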

How the results depend on the processing

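Of 163 named genes none changed direction, and 131 kept direction and call under every alternative in which they were tested. The other 32 lost the call under at least 1 alternative. CYT1 and VEC shared no deviation by replicate number (correlation -0.006), so the numbers are not taken to pair the samples. With a replicate block 5719 probes were called against 6229 without it, and 3 named genes lost their call. With the CYT2 arrays left out of the fit 5688 probes were called and 4 named genes lost their call. On 7p 98 genes were then called lower. Without 1 replicate 3969 to 4427 probes were called, 2067 to 2217 higher and 1889 to 2210 lower. The count fell by over 1.5 times without VEC replicate 1 (3969) or VEC replicate 2 (3994), and that of lower probes also without CYT1 replicate 1 (2210) or CYT1 replicate 2 (2140). Technical arrays 1 alone gave 3720 probes, 1907 higher and 1813 lower, and technical arrays 2 alone 3931, with 1904 lower. The deposited log2 values gave 5037 probes lower.

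Without 1 replicate the ribosome assembly list had 33 to 38 members lower, mitochondrial import 11 to 14, pattern recognition 9 to 12, autophagy 9 to 11 higher and xenobiotic metabolism 15 to 18 higher. Mitochondrial import had 38 lower with the deposited log2 values and 9 with technical arrays 1 alone, and pattern recognition 9 with technical arrays 2 alone. Of 60 lists 21 kept their counts within 1.5 times under every alternative. On 7p 80 to 89 genes were lower without 1 replicate, with medians of -0.47 to -0.43. For 7p, quantile scaling of uncorrected signals gave a median of -0.35. It was -0.46 with deposited values, -0.48 with median scaling, -0.42 with an offset of 50, -0.51 with the stricter filter, and -0.45 and -0.47 with technical arrays 1 and 2 alone.

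CYT1 against CYT2 depended strongly on the processing. Of its probes 82 were called, 995 with quantile scaling of uncorrected signals, 706 with deposited values, 482 with an offset of 50 and 51 with median scaling. There were 2 with no detection filter, 1 and 2 with technical arrays 1 and 2 alone, and 2 with a replicate block. Leaving out any CYT1 or CYT2 replicate gave 0 probes in limma (2270 to 2484 at an unadjusted p under 0.05). For these differences the cause was not tested. Signal over background limits the dim genes. Bounds are given for CYT1 against VEC, while the CYT1 minus CYT2 differences carry none, also where a group is at background. The alternatives without genes of 7p, by chromosome arm and for CYT1 against CYT2 were chosen after seeing the data.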
